A study of Mus musculus with 52 samples.

Results

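Oxidative phosphorylation subunits encoded in the nucleus were followed across 13 clone samples of Cilia-APEX-IMCD3, an established mouse cell line from the inner medullary collecting duct of the kidney. Members were all gene symbols of the count files beginning with Ndufa, Ndufb, Ndufc, Ndufs or Ndufv and a number, the 4 genes Sdha to Sdhd, and all symbols beginning with Uqcr, with Cox4 to Cox8 or with Atp5. The rule took 84 of 24421 symbols: 37 of complex I, 4 of complex II, 8 of complex III, 18 of complex IV and 17 of complex V. RNA-sequencing libraries came from clones treated with CRISPR cytosine base editing to place missense changes in Wdr34 or Wdr60, the genes of the intermediate chains of the cytoplasmic dynein-2 motor that carries cargo back from the tip of the cilium. In the ciliated state there were 3 mutant clones labelled homozygous (WDR60, and the Wdr34 clones WDR341 and WDR343), beside the controls D8, H12, A4 and G7. The study describes its ciliated comparison with 3 control clones, whereas all 4 labelled controls are used here. In the non-ciliated state there were 2 mutant clones labelled homozygous (W34 and W60) beside the controls AB, Co1, Co2 and Co3. Controls had received the editor and a guide vector without a target oligo. Every clone was sequenced as 4 libraries, 52 in all, so that a clone is 1 biological unit and its libraries are technical repeats. Clones are counted here by their label within a state. By the study's description of its clones several lines were probably sequenced in both states, but the labels do not match them.

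The alleles that the study made were Wdr34 p.Arg183Trp, Wdr34 p.Gly394Ser (in a clone with a further heterozygous Wdr34 change) and Wdr60 p.Ala911Val. GEO's labels do not tie an allele to a clone. The study made 1 Wdr60 allele and did not sequence p.Gly394Ser in the non-ciliated state. This leaves p.Ala911Val for WDR60 and W60 and p.Arg183Trp for W34, while the labels leave WDR341 and WDR343 unassigned. The study also lists differentially expressed genes per allele in ciliated cells, and no assignment from those lists is made here. The counts of Wdr34 and Wdr60 do not check the genotype because the edits are missense. The labels give medium with 10% serum for every sample, whereas in the study's methods the ciliated cells were starved of serum. The study's text also places the p.Gly394Ser clone after the non-ciliated sequencing was finished, so that at least this clone was sequenced later. Ciliation, serum and time of sequencing therefore cannot be told apart in any comparison between the states. Because each sample was a bulk culture, more transcript per cell and a different mix of cells cannot be told apart either.

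Complex I (NADH dehydrogenase) and complex II (succinate dehydrogenase, also an enzyme of the tricarboxylic acid cycle) pass electrons to ubiquinone, complex III passes them on to cytochrome c, and complex IV (cytochrome c oxidase) passes them to oxygen. Complexes I, III and IV pump protons across the inner mitochondrial membrane, and complex V (ATP synthase) uses the gradient to make ATP. Apart from complex II, each complex is built from subunits of both genomes, and the members here are only those encoded in the nucleus. No symbol for a subunit encoded in mitochondrial DNA was present in the count files used here. Kidney tubule cells are known for a high demand on mitochondrial respiration, which is greater in proximal than in collecting duct segments.

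Library totals ran from 14816218 to 28084979 counts, with a median of 17414012. Levels are given as CPM, counts scaled to a common library total by the trimmed mean of M-values. Cdh16, Pax2 and Pax8, which mark tubule and collecting duct epithelium, were present in all 13 clones, but Aqp2, the water channel that defines principal cells, was near 0 in all of them. Control clones Co2 and G7 stood apart from the other clones in epithelial markers. Cdh1 (E-cadherin) was at 4.22 CPM in Co2 and 14.4 CPM in G7, and Epcam at 2.86 and 13.5 CPM. The other clones had 241 to 649 CPM of Cdh1 and 182 to 836 CPM of Epcam. Cdh16, Pax2 and Pax8 went the other way and were highest of their state in these 2 clones. They stood at 266, 277 and 300 CPM in Co2 and at 841, 310 and 419 CPM in G7. Of the 5 proximal tubule markers, Lrp2, an endocytic receptor, was at 272 CPM in Co2 and 447 CPM in G7 and at 4.6 to 96.3 CPM in the other clones, whereas its partner Cubn was at 13.2 CPM in Co2 and 3.43 CPM in G7 (2.11 to 24.1 CPM in the others) and the other 3 were under 1 CPM in every clone. WDR343 differed in part of its markers too, as given beside its results. Across the 17 collecting duct and kidney epithelium markers, the summed level was 2180 to 4265 CPM in ciliated mutants, 2031 to 5320 CPM in ciliated controls, 3505 to 3728 CPM in non-ciliated mutants and 1284 to 4535 CPM in non-ciliated controls. None of the 5 endothelial markers reached 1 CPM in any clone. Of the 5 leukocyte markers, 3 were under 1 CPM in every clone, and the sum, 171 to 298 CPM in ciliated and 18.4 to 54.6 CPM in non-ciliated clones, was nearly all Csf1r. The part of these marker levels in the results was not tested.

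Not every member could be measured. Ndufs5, a complex I subunit, and Cox8c, the testis form of complex IV subunit 8, had 0 counts in all 52 libraries, which allows up to 0.107 to 0.202 CPM in a library by counting error alone. Stretches of the Ndufs5 coding sequence (GRCm38, chr4:123712710-123718186) also stand in another gene of the annotation, a pseudogene. The same holds for Ndufb4 of complex I (chr16:37647602-37654368), whose highest count in any library was 90. Cox7c of complex IV (chr13:86044798-86046795), with at most 123 counts in any library, shares stretches with 2 other genes, 1 of them a pseudogene. One run of 100 coding bases that each of these 3 genes shares in full with at least 1 other annotated gene is shown here, because reads from such a run have more than one possible source. The runs were read from the reference transcripts and carry no capitals since every base is shared.

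Ndufs5: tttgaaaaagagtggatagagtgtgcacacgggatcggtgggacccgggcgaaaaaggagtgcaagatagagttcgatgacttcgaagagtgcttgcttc

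Cox7c: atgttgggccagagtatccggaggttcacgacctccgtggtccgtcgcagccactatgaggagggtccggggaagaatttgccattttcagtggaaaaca

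Ndufb4: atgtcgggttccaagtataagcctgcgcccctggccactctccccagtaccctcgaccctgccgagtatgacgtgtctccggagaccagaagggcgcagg

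Of the 100-base windows in the transcript, 27% were found in other genes for Ndufs5, 44.4% for Cox7c and 33.4% for Ndufb4. How reads with several matches were counted is not stated in the sources used here. Of the 83 members with a transcript model, the 7 with at least 20% of such windows in other genes had a median level of 5.38 CPM per kilobase of transcript, and 5 of them were under 20 CPM per kilobase. The 64 members without a repeated window had a median of 70.8 CPM per kilobase, with 10 under 20. Of these 10, 8 are tissue isoforms or the paralogue Ndufa4l2, and the remaining 56 members had a median of 93.7. Since their reads can have several sources, the values of Cox7c, Ndufb4, Atp5l (61.3% repeated), Atp5h (32.7% repeated) and Atp5g2 (100% repeated) are uncertain, and so is that of Atp5o (77% repeated), whose exon bases also lie 100% within 2 overlapping genes.

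Levels per kilobase, as the mean and SD over the 13 clones, placed Atp5b on top. Atp5b, the catalytic beta subunit of ATP synthase, stood at 792 ± 231 CPM per kilobase and Atp5a1, the alpha subunit, at 536 ± 124, level with the highest of complex IV. In complex IV the leaders were Cox6a1 (577 ± 125), Cox4i1 (531 ± 86) and Cox8a (528 ± 161), and these 3 did not differ beyond their spread. Uqcrq led complex III with 385 ± 57.6 CPM per kilobase. Within complex I, the highest was Ndufa4 at 255 ± 49.9, a protein named with complex I but known to reside in complex IV. The 4 subunits of complex II lay close together, Sdhb at 74.2 ± 16.8, Sdhd at 67.5 ± 18.3, Sdha at 51.6 ± 8.82 and Sdhc at 47.4 ± 7.14 CPM per kilobase, and neighbours in this order did not differ beyond their spread. The lung isoform Cox4i2, the heart and muscle isoforms Cox6a2, Cox7a1 and Cox8b, the testis isoforms Cox6b2 and Cox7b2 and the hypoxia-related paralogue Ndufa4l2 had at most 5, 9, 7, 2, 3, 1 and 2 counts in any library, in the order named. Their widely expressed partners Cox4i1, Cox6a1, Cox7a2, Cox8a, Cox6b1, Cox7b and Ndufa4 were all among the tested members. Among the 3 genes that encode the same c subunit of the ATP synthase ring, Atp5g3 gave a median of 96.5% of the counts over 52 libraries (90.9 to 98.4%), Atp5g2 2.83% and Atp5g1 0.618%.

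**Figure D1:**
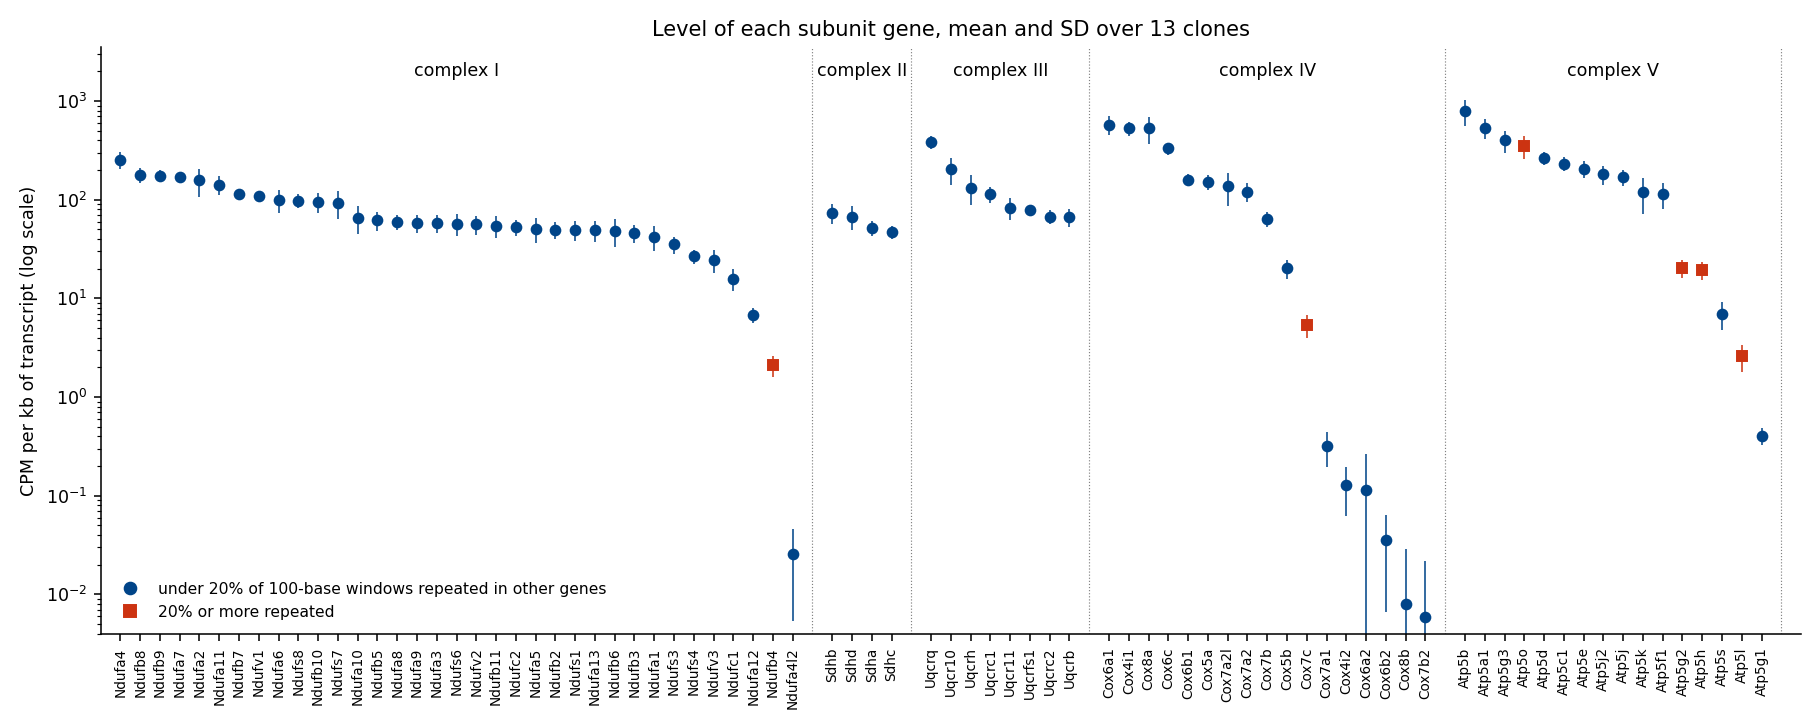
Level of each member as CPM per kilobase of transcript on a log axis, by complex, with the mean and SD over 13 clones (a bar that would pass below 0 runs to the foot of the axis). Atp5b at 792 and Cox6a1 at 577 CPM per kilobase lead, and the tissue isoforms of complex IV lie below 1; the 2 members at 0, 1 member without a transcript length and 1 member not reported here are left out.

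The summed level of the 84 members was compared between clones. Among ciliated controls the sums were 7500 ± 86.7 CPM in D8, 8094 ± 412 in H12, 8670 ± 415 in A4 and 12136 ± 2188 in G7 (SD, n = 4 libraries each). The ciliated mutants gave 8688 ± 429 CPM in WDR341, 12549 ± 282 in WDR343 and 9744 ± 2030 in WDR60. In the non-ciliated controls the sum was 9974 ± 2340 CPM in AB, 10271 ± 308 in Co1, 10436 ± 252 in Co2 and 8792 ± 132 in Co3, and in the non-ciliated mutants it was 11268 ± 319 in W34 and 11273 ± 651 in W60. G7 and WDR343 were the highest clones, 1 control and 1 mutant, so the ciliated groups overlapped, whereas both non-ciliated mutants lay above all 4 of their controls. The rank of G7 among all clones rested on its library 4, at 15402 CPM. The other libraries of G7, at 10752 to 11201 CPM, lay below the means of W34 and W60. As a share of all counts, without the scaling, W34 at 1.05% was level with control Co2 at 1.05%, and W60 was at 1.1%. Of the 75 members with a mean over 1 CPM, 23 had their highest clone mean in G7, library 4 included, and 15 in WDR343. The lowest clone mean was in D8 for 27 and in Co3 for 21. The ratio of the highest to the lowest clone mean was 2.07 in the median member, from 1.39 for Ndufa7 to 4.34 for Atp5k.

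By complex, complex V made up the largest share of the counts. Its sum was 3893 ± 1081 CPM in ciliated controls (SD, n = 4 clones), 4481 ± 1152 in ciliated mutants (n = 3), 4692 ± 432 in non-ciliated controls (n = 4) and 5450 ± 85.7 in non-ciliated mutants (n = 2). Complex I gave 2332 ± 393, 2605 ± 340, 2398 ± 166 and 2674 ± 26.9 CPM in the same order, and complex IV gave 1687 ± 414, 1914 ± 278, 1511 ± 147 and 1724 ± 60.8 CPM. Complex III was at 763 ± 123, 825 ± 150, 800 ± 44 and 920 ± 32.2 CPM, and complex II at 425 ± 87.3, 503 ± 127, 467 ± 33.4 and 504 ± 23.3 CPM. In each of the 5 complexes the mutant mean lay above the control mean of the same state, and in the ciliated state the difference was smaller than the SD over clones in every complex.

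**Figure D2:**
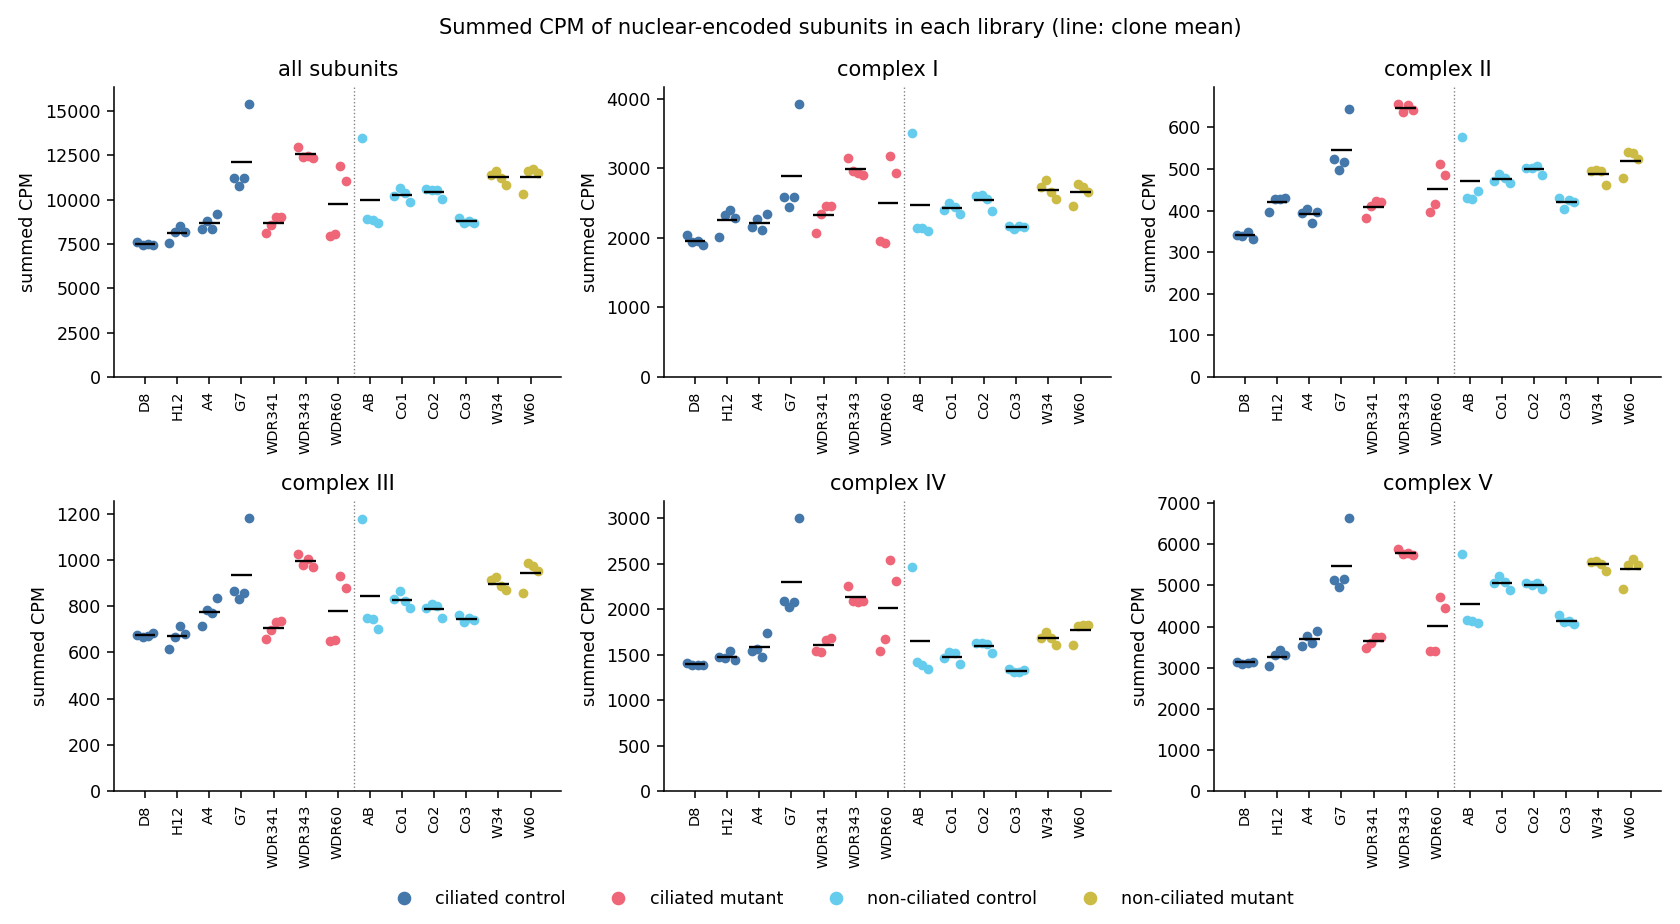
Summed CPM of the members of each complex, 1 point per library and a bar at the mean of the 4 libraries of a clone, for 7 ciliated clones (left of the dotted line) and 6 non-ciliated clones (right). G7 and WDR343 are the highest ciliated clones, with sums of 12136 and 12549 CPM over all members, and library 1 of AB and library 4 of G7 lie far above the other libraries of their clone.

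Single libraries carried part of this spread. Each library was compared with the other 3 libraries of its clone over the 72 members with a mean count of at least 50. Library 1 of control AB had 71 of 72 members above the others, with a median log2 deviation of 0.79, and library 4 of control G7 had 65 of 72 above with a median of 0.52. Clone WDR60 split into a pair with medians of 0.39 and 0.31 (libraries 3 and 4) and a pair with -0.34 and -0.36 (libraries 1 and 2). Other short transcripts moved alongside. Genes in the shortest 20% by transcript length had a median deviation of 0.53 in AB library 1 against -0.59 in the longest 20%, and of 0.30 against -0.30 in G7 library 4. Cytosolic ribosomal protein genes were at 0.73 and mitochondrial ribosomal protein genes at 0.62 in AB library 1, whereas the tricarboxylic acid cycle genes, with longer transcripts, were at 0.10. Of the 72 members compared, 71 had a transcript length, and 61 of these lay in the shortest 20%. Counts of called members that rest on AB or G7 are given with and without these libraries, and values of single members with them.

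**Figure D3:**
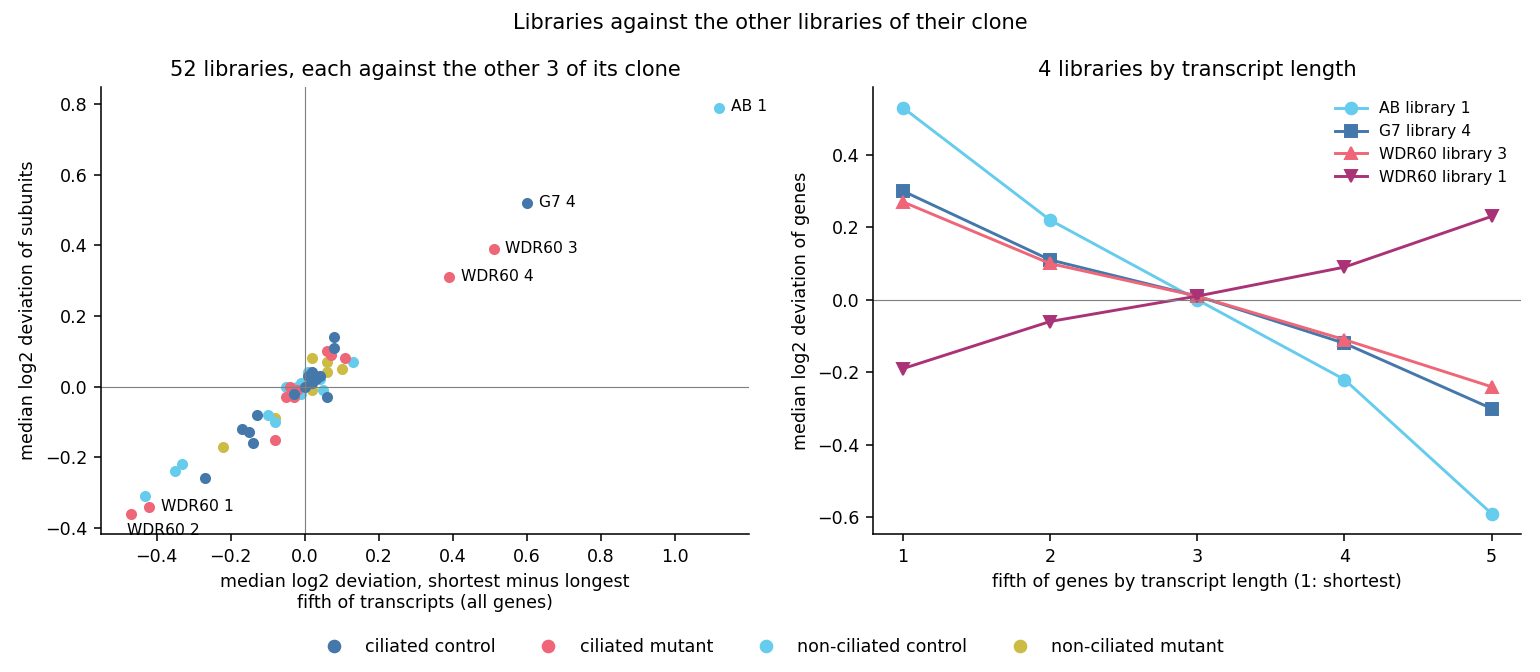
Left, for each of 52 libraries, the median log2 deviation of the members from the other 3 libraries of the clone against the median deviation of the shortest minus the longest 20% of transcripts; right, the median deviation in 5 equal classes of transcript length for 4 libraries. Libraries in which the members are high, AB 1 (0.79) and G7 4 (0.52), are those in which short transcripts are high as a whole.

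Mutant clones were compared with the controls of their own state. Because each allele stood in a single clone of a state, an effect of the genotype cannot be told from one of the clone. Tests used edgeR's quasi-likelihood F-test over the libraries, with a call at a Benjamini-Hochberg adjusted p under 0.05 over all genes. These fits count the technical libraries of a clone as independent samples, so their p-values can be too small for a difference between clones. With the libraries of each clone summed, so that clones were the samples, no member was called in any comparison of mutants with controls. No other gene was called in these fits either.

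In the ciliated state, 3 of the 75 tested members were higher in mutants and none was lower. The 3 were Sdhc, a membrane anchor of complex II, Ndufs1, an iron-sulfur subunit of the NADH-oxidizing arm of complex I, and Cox6a1, the widely expressed form of complex IV subunit 6a. Over all 11950 genes tested, 1.5% were called higher and 1.71% lower. The log2 fold change was positive for 68 of the 75 members (46.3% of all genes), with a median of 0.14 against -0.02 over all genes, and 12 members had an unadjusted p under 0.05 (19.3% of all genes). Medians by complex were 0.12 for complexes I, III and V, 0.19 for complex II and 0.18 for complex IV. The called members were 1 of 35 in complex I, 1 of 4 in complex II, 1 of 11 in complex IV, and none of 8 in complex III or of 17 in complex V.

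Sdhc (chr1:171129157-171150640) had mean levels of 119, 138, 134 and 142 CPM in the control clones D8, H12, A4 and G7, and of 143, 206 and 160 CPM in WDR341, WDR343 and WDR60. The clone means did not overlap, although WDR341 and G7 were nearly equal and WDR343 was far above the rest. The log2 fold change of Sdhc was 0.33 ± 0.07 (SE; edgeR, adjusted p = 0.00729), and the exact permutation test over clone means gave p = 0.0286, the smallest that 3 against 4 clones allow. Ndufs1 (chr1:63143592-63176822) ran from 97.7 to 105 CPM in the 4 controls and stood at 103, 155 and 107 CPM in WDR341, WDR343 and WDR60. Only WDR343 was clearly apart, and WDR341 lay within the control range; the log2 fold change was 0.26 ± 0.07 (edgeR, adjusted p = 0.0479). Cox6a1 (chr5:115345652-115348958) was at 299, 289, 303 and 385 CPM in D8, H12, A4 and G7 and at 325, 424 and 480 CPM in the mutants in the same order, so that WDR341 lay below control G7. Its log2 fold change was 0.35 ± 0.10 (edgeR, adjusted p = 0.0469).

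On clone means of log2 CPM, 4 members had all mutants above all controls, namely Sdhc, Ndufb3, Ndufa2 and Ndufa3, where 1.11% of all genes tested did. Of these 4, only Sdhc kept the order in plain CPM, since WDR341 was below control G7 in Ndufa2 (103 against 105 CPM) and Ndufa3 (31.7 against 35 CPM). Ndufb3, an accessory subunit of the membrane arm of complex I (chr1:58586397-58595964), stood at 26.8, 32.4, 34.5 and 24.4 CPM in D8, H12, A4 and G7 and at 34.4, 42.2 and 42.2 CPM in the mutants. WDR341 and control A4 were level, with A4 slightly higher in plain CPM, and the log2 fold change of 0.41 ± 0.14 did not pass (edgeR, adjusted p = 0.104). The rest of complex II did not pass either: Sdha, the flavoprotein, differed by 0.17 ± 0.12, Sdhb, the iron-sulfur protein, by 0.22 ± 0.15 and Sdhd, the other membrane anchor, by 0.16 ± 0.17 on the log2 scale. Without WDR343 the differences were -0.16 for Sdhb and -0.14 for Sdhd. The 3 calls depended on single clones. Without WDR343 no member was called, where 2.25% of all genes were called higher, and without WDR341 there were 6 (3.1%). Without D8 or without A4 there was 1 each (1.11% and 1.09%), and without control G7 there were 28 (7.97%). Without library 4 of G7 alone 2 members were called (1.73% of all genes higher). With a replicate number left out 0 or 1 were called, where 0.268% to 0.435% of all genes were called higher.

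In the non-ciliated state, 9 of 75 members were higher in mutants and none was lower, where 7.12% of all 12012 genes tested were called higher and 7.89% lower. The 9 were Ndufa2, Ndufb3, Ndufs3 and Ndufs6 of complex I, Cox6a1 and Cox7a2 of complex IV, and Atp5a1, Atp5f1 and Atp5k of complex V. Log2 fold changes were positive for 67 of 75 members (50.3% of all genes), with a median of 0.17 against 0.00 over all genes, and the medians by complex ran from 0.11 (complex II) to 0.21 (complex III). On clone means of log2 CPM, both mutant clones lay above all 4 controls for 13 members, against 6.94% of all genes tested. The smallest exact permutation p that 2 against 4 clones allow is 0.0667, so this test cannot pass 0.05.

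Atp5k, the e subunit of the ATP synthase membrane part (chr5:108433246-108434399), had the largest log2 fold change, 1.16 ± 0.31 (edgeR, adjusted p = 0.0132). Its levels were 25.2, 20.1, 49.2 and 16.7 CPM in AB, Co1, Co2 and Co3 and 59.9 and 64.5 CPM in W34 and W60. Control Co2 was near the mutants, and the spread between libraries was wide, from 23.5 to 88.6 CPM in W60. Ndufb3 stood at 36.1, 34.6, 26.1 and 30.4 CPM in the same controls and at 43.3 and 47.4 CPM in W34 and W60, without overlap of clone means, with a log2 fold change of 0.51 ± 0.09 (edgeR, adjusted p = 0.000892). It was the only tested member whose clone means of log2 CPM lay above all controls in both states. Ndufs6, a zinc-containing subunit at the base of the NADH-oxidizing arm (chr13:73319876-73328482), was at 34.9, 26.8, 30.6 and 26.6 CPM in the controls and 37.7 and 49.1 CPM in the mutants, a log2 fold change of 0.55 ± 0.12 (edgeR, adjusted p = 0.00402). Cox6a1 stood at 335, 253, 256 and 228 CPM in the controls and 341 and 367 CPM in the mutants. AB was close to W34, and the log2 fold change of Cox6a1 was 0.40 ± 0.13 (edgeR, adjusted p = 0.0362).

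Ribosomal protein genes, which also have short transcripts, were called higher as well in the non-ciliated mutants. Of the cytosolic ribosomal protein genes 21 of 90 were higher and none lower, with a median log2 fold change of 0.22, and of the mitochondrial ribosomal protein genes 15 of 77 were higher and none lower, with a median of 0.14. The median over all genes went from 0.10 in the shortest 20% of transcripts to -0.08 in the longest. With the trend on transcript length removed, 6 members were higher and 2 lower, where 7.33% and 8.81% of all genes were called. The tricarboxylic acid cycle and pyruvate dehydrogenase list had 2 genes higher and 1 lower of 19, with a median of 0.02. Without control AB 27 members were higher (14.8% of all genes) and without Co2 16 (7.24%). Without Co3 there were 2 (4.63%), and without W34 or W60 3 and 2 (5.98% and 5.89%). Dropping only library 1 of AB gave 34 members higher, where 11.9% of all genes were called higher in that fit. Dropping replicate number 1, 2, 3 or 4 throughout gave 30, 1, 1 and 2 members, where 10.7%, 1.63%, 1.52% and 1.94% of all genes were called higher. Markers of other cells moved in the non-ciliated mutants too: 3 of 13 collecting duct and kidney epithelium markers were lower (median log2 fold change 0.04), as were 2 of 3 leukocyte, 1 of 2 proximal tubule and 1 of 2 fibroblast markers, and none in these lists was higher. Their part in the result was not tested.

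Each mutant clone was then set against the 4 control clones of its state, so that the fits within a state share their controls. The Wdr34 clone WDR343 held most of the calls. In WDR343 16 of 75 members were higher and none lower, where 9.85% of all 12553 genes were called higher and 10.9% lower, and the median log2 fold change was 0.34 against -0.04 over all genes. All 5 complexes were among the calls. The calls included Ndufs1, Ndufb6 and Ndufc2 in complex I (4 of 35), Sdhb and Sdhc in complex II (2 of 4), Uqcrh and Uqcrfs1 in complex III (2 of 8), Cox5a, Cox6a1, Cox7a2 and Cox7b in complex IV (4 of 11), and Atp5a1, Atp5d, Atp5f1 and Atp5o in complex V (4 of 17). With the libraries of a clone summed none was called, and 2 were called in a limma fit with the clone as a block.

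Ndufs1 in WDR343 ranged from 151 to 158 CPM over the 4 libraries, above every one of the 16 control libraries (94.8 to 111 CPM), with a log2 fold change of 0.60 ± 0.05 (edgeR, adjusted p = 2.49e-08). Ndufb6, an accessory subunit of the membrane arm (chr4:40270591-40279421), had the largest log2 fold change among the calls, 1.01 ± 0.20 (edgeR, adjusted p = 0.00116). It was at 56 to 65.6 CPM in WDR343, at 61.4 CPM in library 4 of G7 and at 17.7 to 33.6 CPM in the other control libraries, so that the groups overlapped by 1 library. In Ndufb6 39% of the exon bases also lie in another gene. Uqcrh, the hinge protein of complex III, was at 138 CPM in WDR343 and at 52.7, 64.8, 57.8 and 107 CPM in D8, H12, A4 and G7 (log2 fold change 0.94 ± 0.21; edgeR, adjusted p = 0.00357).

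All 4 genes of complex II had a positive log2 fold change in WDR343, with a median of 0.62, and each had an unadjusted p under 0.05 (33.3% of all genes did). Sdhb stood at 132 ± 2.23 CPM in WDR343 (SD, n = 4 libraries) against clone means of 59, 81.5, 66.3 and 97.8 CPM in the controls, a log2 fold change of 0.77 ± 0.15 (edgeR, adjusted p = 0.000818). Sdhc differed by 0.61 ± 0.07 on the log2 scale (edgeR, adjusted p = 2.45e-06). Sdhd, at 0.62 ± 0.23, and Sdha, at 0.42 ± 0.17, did not pass (edgeR, adjusted p = 0.0617 and 0.0845), and for Sdhd control G7 at 129 CPM was level with WDR343 at 128 CPM.

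**Figure D4:**
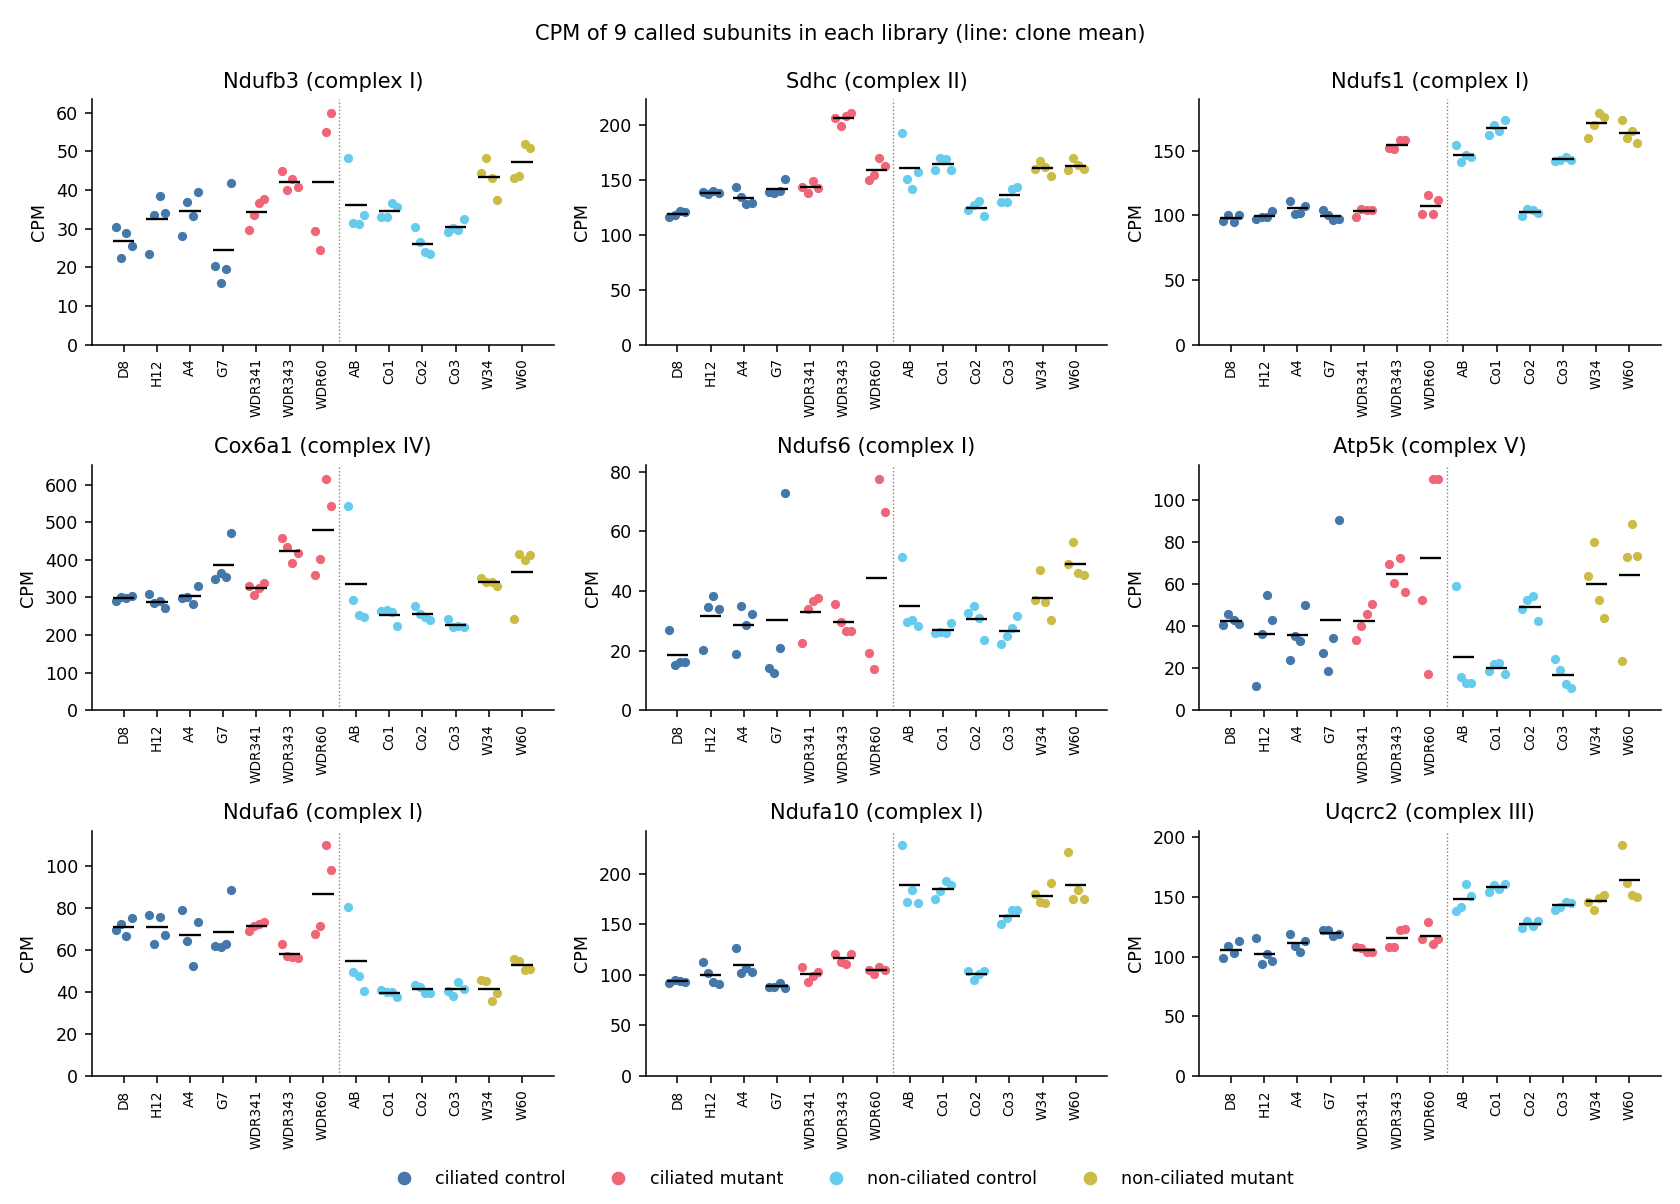
CPM in each library (points) and the clone mean (bars) for members named in the text, with ciliated clones left and non-ciliated clones right of the dotted line. WDR343 stands above all ciliated controls in Ndufs1 (155 CPM against 97.7 to 105), and Ndufa10 is low in control Co2 (101 CPM) next to 159 to 189 CPM in the other non-ciliated controls.

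The tricarboxylic acid cycle and pyruvate dehydrogenase genes had 8 of 20 higher and 1 lower in WDR343, with a median log2 fold change of 0.31. Idh3a, a subunit of isocitrate dehydrogenase, was higher by 1.02 ± 0.22 (edgeR, adjusted p = 0.00264) and Pdha1, a subunit of pyruvate dehydrogenase, by 0.58 ± 0.10 (edgeR, adjusted p = 0.000265). Assembly factors of the complexes had 9 higher and 3 lower of 43, with a median of 0.10. Cytosolic ribosomal protein genes were 37 lower and none higher of 90, with a median of -0.52. Medians over all genes were between -0.06 and -0.04 in each of the 5 classes of transcript length in WDR343, whereas the members in the shortest class had a median of 0.35.

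Ppargc1a, the gene of the coactivator PGC-1 alpha that is known to drive mitochondrial biogenesis, was at 129 to 132 CPM in the 4 libraries of WDR343 and at 113 to 165 CPM in those of G7. In the other 11 clones no library was above 16.2 CPM, and the clone means ran from 0.18 CPM in Co3 to 14.9 CPM in Co2. WDR343 and G7 were also the 2 clones with the highest summed level of the members, G7 with its library 4 included. W34 and W60, with sums of 11268 and 11273 CPM, had 1.72 and 2.92 CPM of Ppargc1a. A part of Ppargc1a in the level of the members was not tested. Because G7 is a control, the log2 fold change of Ppargc1a in WDR343 was 1.74 ± 1.32 (edgeR, adjusted p = 0.38). Markers moved in WDR343 as well. The epithelial keratin Krt8 was at 76.8 CPM in WDR343 and 26.3 CPM in G7, against 372 to 951 CPM in the other ciliated clones, and Krt18 was at 148 and 67.5 CPM against 530 to 1239 CPM. Cdh1 at 301 CPM and Cdh16 at 590 CPM were present in WDR343. Of the 14 collecting duct and kidney epithelium markers tested in WDR343, 1 was higher and 2 were lower, with a median log2 fold change of -0.40. Among the proximal tubule markers 1 of 2 was higher. Lower were 1 of 2 leukocyte, 1 of 2 cardiac and skeletal muscle and 1 of 8 cycling cell markers. Of the 8 fibroblast markers, Dcn (decorin) was at 29.2 CPM in WDR343 and at most 1.01 CPM in every other clone, and the summed level was 31.9 CPM in WDR343. With G7 left out 53 members were higher and 2 lower in WDR343, where 22.2% of all genes were called higher and 22.9% lower. With only library 4 of G7 left out 41 were higher (11.6% of all genes), and without replicate number 1, 2, 3 or 4 throughout 12, 10, 11 and 21 (6.55%, 5.73%, 5.51% and 6.6%). The part of the markers of G7 and WDR343 in these counts was not tested.

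The other ciliated mutants differed less from the controls. In WDR341, the other Wdr34 clone, edgeR and DESeq2 called none of 75 members in either direction, and none had an unadjusted p under 0.05 in edgeR, where 16.4% of all genes did (0.937% of genes were called higher and 1.26% lower). The median log2 fold change in WDR341 was -0.06 against -0.05 over all genes. In WDR60, Atp5j2 (0.67 ± 0.15; edgeR, adjusted p = 0.00767), Cox6a1 (0.58 ± 0.13; adjusted p = 0.00929) and Sdhc (0.25 ± 0.07; adjusted p = 0.0401) were higher and no member was lower, where 2.91% of all genes were called higher and 3.43% lower. Atp5j2 encodes the f subunit of the ATP synthase membrane part. WDR60 was also the clone whose libraries split into 2 pairs, and Cox6a1 there ran from 360 to 615 CPM. Without G7 13 members were higher in WDR60 (6.18% of all genes), and without library 4 of G7 5 (3.3%). Without replicate number 3 none was called, and without number 2 1 was, where 0.811% and 1.2% of all genes were called higher.

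Of the non-ciliated mutants, W34 had 2 members higher (5.89% of all genes, and 5.6% lower) and W60 had 3 (5.98% of all genes, and 6.01% lower), and neither had a member lower. Ndufb3 was called in both, at 0.45 ± 0.12 in W34 and 0.57 ± 0.12 in W60 (edgeR, adjusted p = 0.024 and 0.00507). The other call in W34 was Atp5f1, the b subunit of the ATP synthase stalk, at 312 CPM against 198, 226, 205 and 127 CPM in the controls (0.73 ± 0.16; adjusted p = 0.00607). The other calls in W60 were Ndufs6 (0.72 ± 0.15; adjusted p = 0.00277) and Ndufs3 (0.47 ± 0.14; adjusted p = 0.0281). Without library 1 of AB 18 members were higher in W34 and 20 in W60 (11% and 10.6% of all genes). Without AB 18 and 19 were higher (13% and 14.1%), with 2 lower in W60 (15.3% of all genes). Without Co2 there were 11 in each (8.3% and 8.34%). Without replicate number 2 no member was called in either clone, where 0.876% of all genes were higher in W34 and 1.53% in W60. Without number 3 none was called in W34 and 1 in W60 (1.08% and 1.38%).

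**Figure D5:**
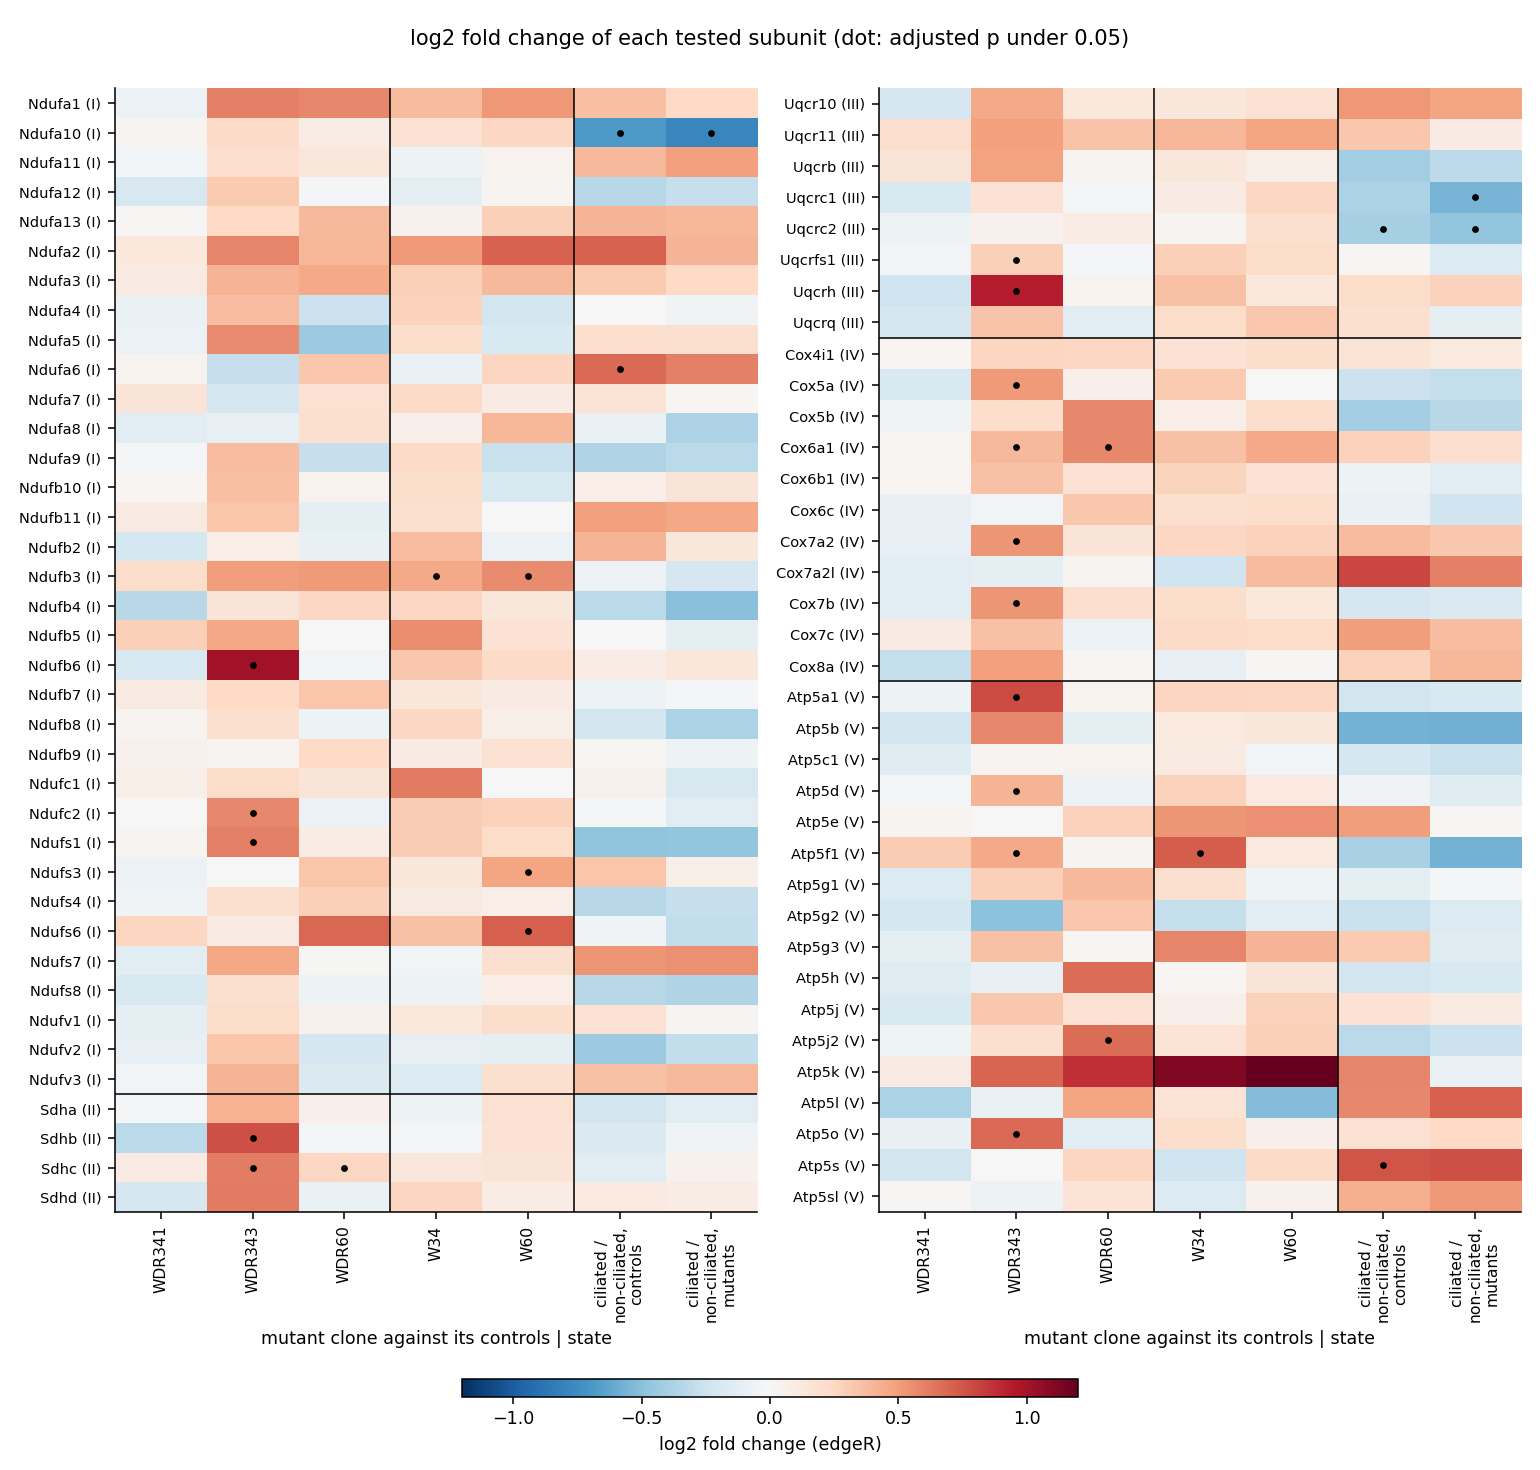
Log2 fold change (colour) of each tested member in the 5 mutant clones against their controls and between the states in controls and in mutants, ordered by complex, with a dot at an adjusted p under 0.05. WDR343 carries the most dots among the mutant clones and WDR341 none, and the state columns carry 4 dots in controls and 3 in mutants; 1 member that is not reported here is left out.

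The states were compared on clones as samples, by edgeR's quasi-likelihood test on the 4 libraries of each clone summed. These tests and the exact permutations take the clones of both states as independent, because which of them are the same line is not known. Between ciliated and non-ciliated control clones, 2 of 78 tested members were higher in the ciliated state and 2 lower, where 8.98% of all 13994 genes were called higher and 9.46% lower, and the median log2 fold change of the members was 0.03. Ndufa6, an accessory subunit of complex I that binds the mitochondrial acyl carrier protein, was at 70.9, 70.6, 67.1 and 68.4 CPM in the ciliated controls and at 54.4, 39.6, 41.1 and 41.1 CPM in the non-ciliated controls. The groups did not overlap, and the log2 fold change was 0.68 ± 0.14 (edgeR, adjusted p = 0.00941; exact permutation p = 0.0286, the smallest that 4 against 4 clones allow). Atp5s, a low-level gene of the ATP synthase family by name, was at 9.78 to 15.6 CPM against 6.84 to 8.95 CPM, also without overlap (0.75 ± 0.20; edgeR, adjusted p = 0.0227).

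Ndufa10, an accessory subunit of complex I related to nucleoside kinases (chr1:92439486-92473825), was lower in the ciliated controls, with 93.5, 100, 110 and 88.5 CPM against 189, 185, 101 and 159 CPM in AB, Co1, Co2 and Co3. Control Co2 lay within the ciliated range, the log2 fold change was -0.69 ± 0.17 (edgeR, adjusted p = 0.0188) and the exact permutation p was 0.0571. Uqcrc2, a core protein of complex III (chr7:120635189-120659523), stood at 106, 102, 111 and 120 CPM against 148, 158, 127 and 143 CPM, without overlap (-0.40 ± 0.10; edgeR, adjusted p = 0.0182; exact permutation p = 0.0286). Clone means were wholly above in the ciliated state for 5 members (9.9% of all genes) and wholly below for 2 (11.5%). Complex II did not pass in any gene, with differences from -0.22 to 0.12. Without G7 10 members were lower (8.96% of all genes) and without Co1 none (4.64%). Without Co2 7 were higher and 4 lower (10.6% and 11.3%).

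Most neighbouring gene groups had a larger share of calls than the members, 4 of 78. Of the assembly factors, 8 of 43 were lower in ciliated controls and none higher (median -0.24), and of the tricarboxylic acid cycle and pyruvate dehydrogenase genes 5 of 20 were lower and 1 higher (median -0.40), among them Cs, the citrate synthase gene (-0.80 ± 0.14; edgeR, adjusted p = 0.00504). Mitochondrial ribosomal protein genes had 26 of 77 lower and none higher (median -0.41), and cytosolic ribosomal protein genes 22 of 91 lower and 2 higher (median -0.45). None of the 16 regulators of mitochondrial biogenesis and mitochondrial DNA upkeep was called by edgeR, and 4 had an unadjusted p under 0.05. Markers of cycling cells moved with the state as well: 5 of 8 were lower in ciliated controls and none higher (median -0.44), and their sum was 1712 to 2481 CPM in ciliated and 2404 to 2809 CPM in non-ciliated controls. Their part in the results was not tested. Of 7 respiratory genes whose names fall outside the rule, 2 were lower. Ndufab1, the mitochondrial acyl carrier protein, was at 4.22 to 5.98 CPM in ciliated and 10.8 to 17.1 CPM in non-ciliated controls (-1.52 ± 0.23; edgeR, adjusted p = 0.00269). Usmg5, a small subunit of the ATP synthase membrane part, was at 5.56 to 14.5 against 26.6 to 29.5 CPM (-1.64 ± 0.41; edgeR, adjusted p = 0.0185). Library 4 of G7, at 30.4 CPM of Usmg5, lay within the range of the non-ciliated control libraries (21 to 44.7 CPM). The other G7 libraries were at 7.02 to 13.5 CPM.

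Between the states in mutant clones, none of 78 members was higher and 3 were lower in the ciliated state, where 5.32% of all genes were called higher and 7.53% lower. The 3 were Ndufa10 (-0.78 ± 0.22; edgeR, adjusted p = 0.0383), Uqcrc1 (-0.56 ± 0.16; adjusted p = 0.0395) and Uqcrc2 (-0.47 ± 0.13; adjusted p = 0.0318). Uqcrc1, the other core protein of complex III, was at 143, 185 and 160 CPM in WDR341, WDR343 and WDR60 and at 224 and 250 CPM in W34 and W60, without overlap. It did not pass in controls (-0.38 ± 0.12; edgeR, adjusted p = 0.0531), and both core proteins had a negative difference in both genotypes. Without WDR341 or WDR60 none of the 3 was called, where 3.4% and 4.47% of all genes were called lower. Without W34 or W60, which leaves 1 non-ciliated mutant clone, none was called either, and fewer of all genes were. There the log2 fold change of Uqcrc2 was -0.55 and -0.40. Over all clones and replicate numbers left out, that of Ndufa10 ran from -0.84 to -0.75 and that of Uqcrc1 from -0.66 to -0.48. Of the cycling cell markers 4 of 8 were lower in the ciliated mutants and none higher (median -0.46), and of the cytosolic and mitochondrial ribosomal protein genes 33 of 91 and 27 of 77 were lower. Their part in the result was not tested. Scaling by library totals alone moved the median of all genes in this comparison from 0.04 to 0.18. Then 1 member was higher and none lower, where 6.82% and 5.32% of all genes were called.

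The difference of the mutant effect between the states was tested as an interaction over the 13 clone samples, also taken as independent. EdgeR called none of the 78 members, none had an unadjusted p under 0.05 (0.972% of all 13994 genes did), and DESeq2 called none. No gene at all was called by edgeR in this test. The estimates for complex II were 0.09 ± 0.30 for Sdha, 0.12 ± 0.37 for Sdhb, 0.18 ± 0.21 for Sdhc and -0.04 ± 0.44 for Sdhd on the log2 scale, so that differences of about their SE could not be detected with these clones.

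Promoter sequence was set beside these values because subunit genes of all complexes are known targets of the nuclear respiratory factor NRF1, of ETS-family factors, of YY1 and of estrogen-related receptors. Windows of 250 bases before to 50 after the gene start were taken from RefSeq (GRCm38.p6) for 69 members, 75 windows in all, and searched on both strands, with overlapping matches of 1 motif counted once. The NRF1 letters GCGCANGCG were in 28% of the member windows and in 6.25% of all 32851 windows. AAGATGGC, read by YY1, was in 16% against 2.75%, CCGGAAGT, read by ETS factors, in 6.67% against 3.89%, and TCAAGGTCA, read by estrogen-related receptors, in 2.67% against 0.423%. By complex, the NRF1 letters stood in 8 of 32 members of complex I, 2 of 3 of complex II, 2 of 5 of complex III, 1 of 13 of complex IV and 7 of 16 of complex V. Of the 9 members called in the non-ciliated mutants, 7 had a window, and the NRF1 letters stood in 3 of these 7 and in 20 of all 69. Atp5f1, Cox7a2, Ndufb3 and Ndufs3 were without them. The upstream 250 bases of the 3 members called in the non-ciliated mutants are shown 5′ to 3′ on the gene strand, chosen for the NRF1 letters, which are in capitals. They are Cox6a1 (chr5:115348959-115349208, minus strand), the only complex IV member with the letters, Atp5k (chr5:108434400-108434649, minus strand) and Ndufs6 (chr13:73328483-73328732, minus strand).

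Cox6a1: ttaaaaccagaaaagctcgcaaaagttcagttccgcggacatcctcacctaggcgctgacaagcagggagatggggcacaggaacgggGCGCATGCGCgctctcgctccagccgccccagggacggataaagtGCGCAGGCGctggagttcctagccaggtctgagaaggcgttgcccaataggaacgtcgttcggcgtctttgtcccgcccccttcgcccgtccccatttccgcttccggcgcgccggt

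Atp5k: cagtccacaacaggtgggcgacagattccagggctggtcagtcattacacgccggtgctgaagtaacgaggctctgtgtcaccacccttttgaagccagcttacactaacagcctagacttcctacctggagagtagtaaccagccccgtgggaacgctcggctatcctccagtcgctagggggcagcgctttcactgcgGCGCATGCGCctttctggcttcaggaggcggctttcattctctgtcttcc

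Ndufs6: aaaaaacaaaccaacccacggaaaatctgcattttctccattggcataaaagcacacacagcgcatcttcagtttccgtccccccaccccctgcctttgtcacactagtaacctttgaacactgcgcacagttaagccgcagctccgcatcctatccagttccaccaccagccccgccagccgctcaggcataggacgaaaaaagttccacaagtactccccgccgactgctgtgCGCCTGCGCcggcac

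The letters begin at -162 and -117 in Cox6a1, at -50 in Atp5k and at -15 in Ndufs6, counted from the gene start. Cox6a1 was called in the mutants of both states and in WDR343 and WDR60, and Ndufb3, called in W34 and W60, had none of the 4 motifs in its window. Nrf1 itself was at 54.6 to 88.5 CPM in the 13 clones. A match is a description of the letters and not a measured site.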

How the data were processed

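Whole-number read counts per gene symbol were deposited by the authors, 1 file per library with 24421 symbols, from paired-end reads mapped to GRCm38/mm10 and counted with featureCounts. Rsubread was the study's aligner, and DESeq2 1.18.1 and R 3.4.4 stand in the submitters' processing notes. Strand and multiple-match settings are not given in the sources used here. Tests were run with edgeR 4.0.16 in R 4.3.3 (TMM scaling, filterByExpr, glmQLFit and glmQLFTest, 2-sided, Benjamini-Hochberg adjustment over all genes), with DESeq2 1.42.0 and limma 3.58.1 as alternatives. Libraries were the samples within a state, and clone sums between states and for the interaction. Exact permutation tests used clone means of log2 CPM with a prior count of 2. Library totals of 14816218 to 28084979 limit the precision of low genes such as Atp5s. CPM per kilobase used 1 reference transcript per gene, and 83 members had one. The scripts were tested on simulated counts.

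Named with values are, per complex, the 3 called members with the largest fold change (filled up by the smallest p), all of complex II, tissue isoforms, members failing the filter, members apart in both states, and the largest call of each clone. Ppargc1a, Uqcrh and the other values printed outside this rule were chosen after they were seen. Single results of 1 member and 1 marker are not reported here. The members and lists were chosen with earlier results of these data known. The replicate numbers did not pair the libraries (see the closing section), and the alternatives tried were other scalings, filters, tools, thresholds, sample units, blocks, single libraries, replicates and clones left out, and a removed length trend.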

Additional observations from a re-analysis of the deposited data

Results flagged for a closer look

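Groups of 4 values were searched for a highest or lowest value apart from the rest. They were the 4 libraries of a clone for each complex sum, and the 4 control clones of a state for each complex sum or a named member. In 23 of 126 groups the gap passed the critical 0.829 of the range. Chance gives such a gap in about 1 of 20 independent groups. These groups are not independent, since the sum over all members holds those of the complexes, so the shares cannot be compared. Library 1 of control AB was far above the other 3 libraries in complex I (3500 CPM summed), complex II (576 CPM), complex III (1178 CPM), complex IV (2457 CPM), complex V (5770 CPM) and all members (13482 CPM). Library 4 of control G7 was far above its 3 neighbours in complex I (3928 CPM), complex III (1182 CPM), complex IV (3003 CPM), complex V (6645 CPM) and all members (15402 CPM). Library 1 of WDR343 was high in complex IV at 2252 CPM. Library 1 of W60 was low in complex IV (1601 CPM) and in all members (10306 CPM). Library 4 of Co2 was low in complex IV (1518 CPM) and in all members (10059 CPM). Library 4 of W34 was low in complex II (461 CPM), and library 1 of H12 stood apart in complex II at 397 CPM.

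Between control clones, AB was high among the non-ciliated controls in Atp5s (8.95 CPM) and Ndufa6 (54.4 CPM), and Co2 was high in Ndufa2 (92.1 CPM) and low in Uqcrc1 (184 CPM). G7 was high among the ciliated controls in Cox6a1 at 385 CPM.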

How the results depend on the processing

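The members' median log2 fold change stayed positive in all 22 settings for ciliated mutants (0.03 to 0.32), all 21 for non-ciliated mutants (0.05 to 0.24) and all 19 for WDR343 (0.25 to 0.51), W34 (0.08 to 0.26) and W60 (0.06 to 0.27). It was positive in 18 of 19 settings for WDR60 (-0.02 to 0.28), 2 of 19 for WDR341 (-0.13 to 0.09), 22 of 29 for the state in controls (-0.17 to 0.13), 3 of 29 for the state in mutants (-0.18 to 0.08) and 10 of 29 for the interaction (-0.16 to 0.13). None of the called members given with values and checked in this way changed direction. Of the members with values that were not called, Sdhb and Sdhd in ciliated mutants turned to -0.16 and -0.14 without WDR343, and Sdhd between states in controls to -0.22 without G7 (up to 0.43, 0.48 and 0.26 with another clone or replicate number left out). The interaction estimate of Sdhd turned to 0.04 with library totals, 0.00 with libraries as samples, with and without the replicate block, 0.01 with the length trend removed and 0.03 without library 4 of G7, and it ran from -0.34 to 0.31 when a replicate number or clone was left out; that of Sdha ran from -0.05 to 0.29 and that of Sdhb from -0.25 to 0.34. Counts of called members moved. With the libraries of a clone summed, 0 members were called in ciliated mutants, non-ciliated mutants, W34, W60, WDR343 and WDR60, and no other gene was called either. With the clone as a block (limma) the counts were 0 in these except 2 in WDR343, where 2% of all genes were called higher. With libraries as samples, the state comparison gave 18 of 75 higher and 21 lower in controls, where 31.8% and 30% of all genes were called. In mutants it gave 13 and 14, where 31.4% and 29% of all genes were called. The replicate numbers did not meet the condition for pairing, a correlation over 0.1 in every pair: same-numbered libraries of different clones had a median correlation of 0.02 in the ciliated and 0.03 in the non-ciliated state (highest 0.82 and 0.31), with 30 of 84 and 21 of 60 pairs over 0.1. With the replicate block 1 member was called in ciliated mutants (0.971% of all genes higher). With libraries as samples and the block, the state counts were 17 higher and 20 lower in controls (31.1% and 29.6% of all genes). In mutants they were 12 and 14 (30.7% and 28.7%).

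Library 1 of AB left out gave 34 members higher in non-ciliated mutants, 18 in W34 and 20 in W60 (11.9%, 11% and 10.6% of all genes). Between the states it gave 4 higher in controls and 1 in mutants (9% and 5.16%). The same 4 and 1 came without both libraries. Library 4 of G7 left out gave 41 higher in WDR343, 5 in WDR60 and 0 in WDR341 (11.6%, 3.3% and 1.14% of all genes). Between the states in controls it gave 2 higher and 3 lower (8.48% and 8.88%). With the length trend removed there were 2 lower in non-ciliated mutants and 1 lower in W34 (8.81% and 7.63% of all genes). There were 25 higher and 2 lower in WDR343 (10.9% and 10.8%), and 2 higher between states in mutants (5.1%). DESeq2 gave 5 higher in W60 (7.69% of all genes) and 2 lower in WDR343 (13.4%). Between states it gave 6 higher and 4 lower in controls (13.2% and 12.8%), and 3 higher in mutants (10.8%). Library totals alone gave 5 higher in non-ciliated mutants (5.48% of all genes), and 1 higher and 0 lower between states in mutants (6.82% and 5.32%). With a filter of at least 1 count in any sample there were 5 higher in non-ciliated mutants (4.12% of all genes) and 1 lower between states in mutants (4.28%). With at least 10 counts in every sample there were 4 higher and 4 lower between states in controls (11% and 12.2%) and 1 higher in mutants (7.31%).

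A log2 fold change of at least 1 as a further condition left 1 member in non-ciliated mutants, 1 in WDR343 and 0 in every other comparison, and an adjusted p under 0.01 left 1 in ciliated mutants, 2 in non-ciliated mutants, 1 in W34, 1 higher and 0 lower between states in controls, and 0 lower in mutants. At the smallest exact permutation p, CPM by library totals gave 1 member in ciliated and 2 in non-ciliated mutants, in place of 2 and 5. Leaving out a replicate number or a clone gave 0 to 28 members higher in ciliated mutants, 1 to 30 in non-ciliated mutants, 0 to 18 in W34, 0 to 26 higher and 0 to 2 lower in W60, 0 to 1 lower in WDR341, 10 to 53 higher and 0 to 2 lower in WDR343 and 0 to 13 higher in WDR60. Between the states it gave 1 to 7 higher and 0 to 10 lower in controls, and 0 to 1 higher and 0 to 3 lower in mutants. The share of all genes called higher moved too, from 0.268% to 7.97% in ciliated mutants and from 1.52% to 14.8% in non-ciliated mutants. In WDR343 it ran from 5.51% to 22.2%. The cause of these moves was not tested. Of the comparisons of single members with an alternative, 808 kept their direction and side of the threshold, 195 lost a call, 22 gained one and 20 changed direction.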

Other observations

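In the ciliated state the beta subunit gene Atp5b was at 877, 879 and 1124 CPM in controls D8, H12 and A4 and at 1022 and 1107 CPM in mutants WDR341 and WDR60, but at 1878 CPM in control G7 and 1811 CPM in mutant WDR343. The non-ciliated clones were at 1571 to 1991 CPM. Sdhd showed the same division, with 129 CPM in G7 and 128 CPM in WDR343 against 62.7 to 77.5 CPM in the other ciliated clones. Cox7a2l, the gene of a factor that joins complexes III and IV, was at 291 CPM in G7 and at 127 to 189 CPM in the other ciliated clones, WDR343 included at 173 CPM. Ppargc1b, a relative of Ppargc1a, was at 7.74 CPM in G7, 6.82 CPM in WDR343 and 5.47 CPM in Co2, and at 0.888 to 2.92 CPM in the other clones. Esrra, which encodes an estrogen-related receptor, was at 67.9 CPM in WDR343 and at 30.4 to 55.8 CPM in the other clones. By library the clones overlapped. Esrra ran from 62.1 to 76.3 CPM in WDR343 and reached 78.9 CPM in library 4 of G7 and 63.4 CPM in library 1 of D8. Its log2 fold change in WDR343 did not pass (0.51 ± 0.22; edgeR, adjusted p = 0.0999).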
